A study of Mus musculus with 12 samples.

Results

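Rbfox1, Rbfox2, Rbfox3, Nova1, Nova2, Ptbp1, Ptbp2, Srrm4 and Mbnl2 encode RNA-binding proteins that choose exons during neuronal differentiation. They were taken by symbol and are 9 of 27998 gene rows of the single-cell tables and 9 of 40814 gene rows of the neurosphere table. The set was selected on a measured value, the level of Rbfox1 in immature granule cells, already seen to be higher in Larp7 mutants, so that level is given as a description with no test. End-tag UMIs and counts per gene measure how much RNA of a gene there was, not how any exon was spliced.

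RNA of single cells was measured in 3 libraries of dentate gyrus from mice at postnatal day 7, each made from 3 to 4 gyri of littermates combined. The wild-type library came from mice without Cre. The first mutant library, called nestin-Cre, came from Larp7 f/f;nestin-Cre animals and so carries a deletion made throughout the central nervous system and in some other organs. The other, called Emx1-Cre, came from Larp7 f/f;Emx1-Cre animals, whose recombinase is expressed in progenitors of the dorsal forebrain. For both mutant libraries the genotype entry names the other Cre line, and the names used here follow the titles. Bulk RNA was measured in neurosphere cultures from P1 dentate gyrus, 2 made from wild-type and 3 from Emx1-Cre mutant mice, at day 2 of differentiation. By the methods, cells spent the first 2 days after dissociation on Matrigel in N2B27 medium with 20 ng/ml bFGF. The study's results instead count days from the removal of EGF and FGF and the addition of serum. The labels do not say which applies. The study's n counts mice or independent experiments, and the labels name no animal for a culture, so p-values measure the spread between these cultures.

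Larp7 is part of the particle that holds the transcription elongation factor P-TEFb inactive. Granule neurons of the dentate gyrus arise from radial glia-like cells (RGL) through neuronal intermediate progenitor cells (nIPC) and neuroblasts. Along such a lineage, Ptbp1, which represses neuronal exons in dividing cells, gives way to Ptbp2, and Srrm4, which drives the inclusion of neuronal microexons, comes on. Rbfox proteins bind GCAUG-type motifs and act in maturing neurons, where Rbfox3 is the antigen known as NeuN. Nova proteins serve synaptic exons, and Mbnl2, a muscleblind protein, serves the switch from fetal to adult exons.

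Rbfox1 spans 1527688 bp on chromosome 16 (5884793 to 7412480, GRCm38.p6), the longest span of the 9 genes. Ptbp1 on chromosome 10 (79854432 to 79864435) is the shortest at 10004 bp. RefSeq windows before a start were used for 8 of the 9 genes, with 2 for Rbfox1 and none for Rbfox2. The Rbfox3 window precedes an internal start, inside the gene's span of 118489760 to 118911597 on chromosome 11. The windows of Srrm4 and of the second Rbfox1 start also lie inside the span of their gene. The 250 bases before the starts of the genes whose RNA differed most between the first and the last stage, among those with a window, are printed 5′ to 3′ on the gene's strand, since neurogenic basic helix-loop-helix factors of this lineage bind E-boxes. Capitals mark the E-box CANNTG, a pattern that is found alike on both strands, although a single site such as CAAATG need not read the same. These letters were found in 5 of 9 windows, against 66.2% of 32851 RefSeq windows of the same length, and a match is not a binding site.
Rbfox1 first start, chr16:5884543-5884792, plus strand: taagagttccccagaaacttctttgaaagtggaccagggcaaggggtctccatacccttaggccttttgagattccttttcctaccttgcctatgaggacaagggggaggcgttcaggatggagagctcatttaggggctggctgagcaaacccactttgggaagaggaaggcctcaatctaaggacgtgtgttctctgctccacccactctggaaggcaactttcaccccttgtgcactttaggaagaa
Rbfox1 second start, chr16:7069585-7069834, plus strand: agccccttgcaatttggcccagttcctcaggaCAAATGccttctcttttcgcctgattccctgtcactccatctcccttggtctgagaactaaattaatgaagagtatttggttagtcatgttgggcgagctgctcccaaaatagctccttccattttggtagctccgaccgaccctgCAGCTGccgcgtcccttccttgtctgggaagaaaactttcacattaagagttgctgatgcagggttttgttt
Rbfox3, chr11:118761042-118761291, minus strand: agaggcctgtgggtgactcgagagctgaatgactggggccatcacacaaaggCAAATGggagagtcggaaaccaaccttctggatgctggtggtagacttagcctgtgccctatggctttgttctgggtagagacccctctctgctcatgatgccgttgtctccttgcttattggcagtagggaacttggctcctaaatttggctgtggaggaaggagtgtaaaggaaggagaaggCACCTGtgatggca
Srrm4, chr5:116591818-116592067, minus strand: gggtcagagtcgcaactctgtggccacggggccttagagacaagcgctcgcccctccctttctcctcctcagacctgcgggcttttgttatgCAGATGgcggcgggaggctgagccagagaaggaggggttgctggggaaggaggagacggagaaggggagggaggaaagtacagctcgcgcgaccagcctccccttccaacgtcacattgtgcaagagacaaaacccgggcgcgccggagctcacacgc
The first Rbfox1 window held no E-box. The second held 2, with the cores CAAATG and CAGCTG, Rbfox3 held CAAATG and CACCTG, and Srrm4 held CAGATG.

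The libraries of wild-type, nestin-Cre and Emx1-Cre held 10997, 6685 and 6531 cells with more than 500 genes and under 15% mitochondrial UMIs (unique molecular identifiers, each 1 counted RNA molecule). This filter, the one stated in the methods, left fewer cells than the study gives for each library. The wild-type library stood apart in depth, with a median of 1782 UMIs per cell against 3644 and 3873, and 36.7% of its cells stayed unnamed. Libraries shared 11 to 23 barcodes. Cells were clustered without the 9 genes and without Larp7, and clusters were named from marker lists. RGL-like cells numbered 816, 909 and 1015, nIPC-like cells 1047, 954 and 1109, neuroblast-like cells 1317, 1296 and 1388, and immature granule-like cells 450, 1289 and 946. Larp7 in nIPC-like cells was at 93.7 CPM (UMIs of the gene per 1000000 UMIs of the class) in wild-type, 13.3 in nestin-Cre and 15.1 in Emx1-Cre.

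The immature granule-like cells are a single cluster that met the limits for both neighbouring stages. It carried 9 neuroblast markers at a mean log2 fold of 0.98 over other cells and 3 granule markers (Prox1, Stmn2 and Sema5a) at 0.59, and the later name was given by a rule chosen after its genes had been seen. Prox1, the factor that specifies granule cells, was at 930, 1230 and 1242 CPM in it. Neuroblast markers summed to 12744, 12943 and 13147 CPM there, and Dcx and Sox11 were among them. The 16 granule markers summed to 2361, 2742 and 2743 CPM, of which 5, 1 and 2 were at 0. By these lists the class carried markers of both stages.

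In wild-type, Rbfox1 was near the floor in the early stages and high in the last. Its level was 4.71 CPM in RGL-like cells, 2.27 in nIPC-like cells, 43.6 in neuroblast-like cells and 144 in immature granule-like cells, from 13, 10, 193 and 173 UMIs. From nIPC-like to neuroblast-like cells the log2 difference was 4.26 (95% counting interval 3.35 to 5.35), and from there to immature granule-like cells it was 1.73 (1.42 to 2.03). RGL-like and nIPC-like cells did not differ beyond counting error. With 1 library per genotype no test was possible, and every interval on single cells covers counting error only.

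**Figure D1:**
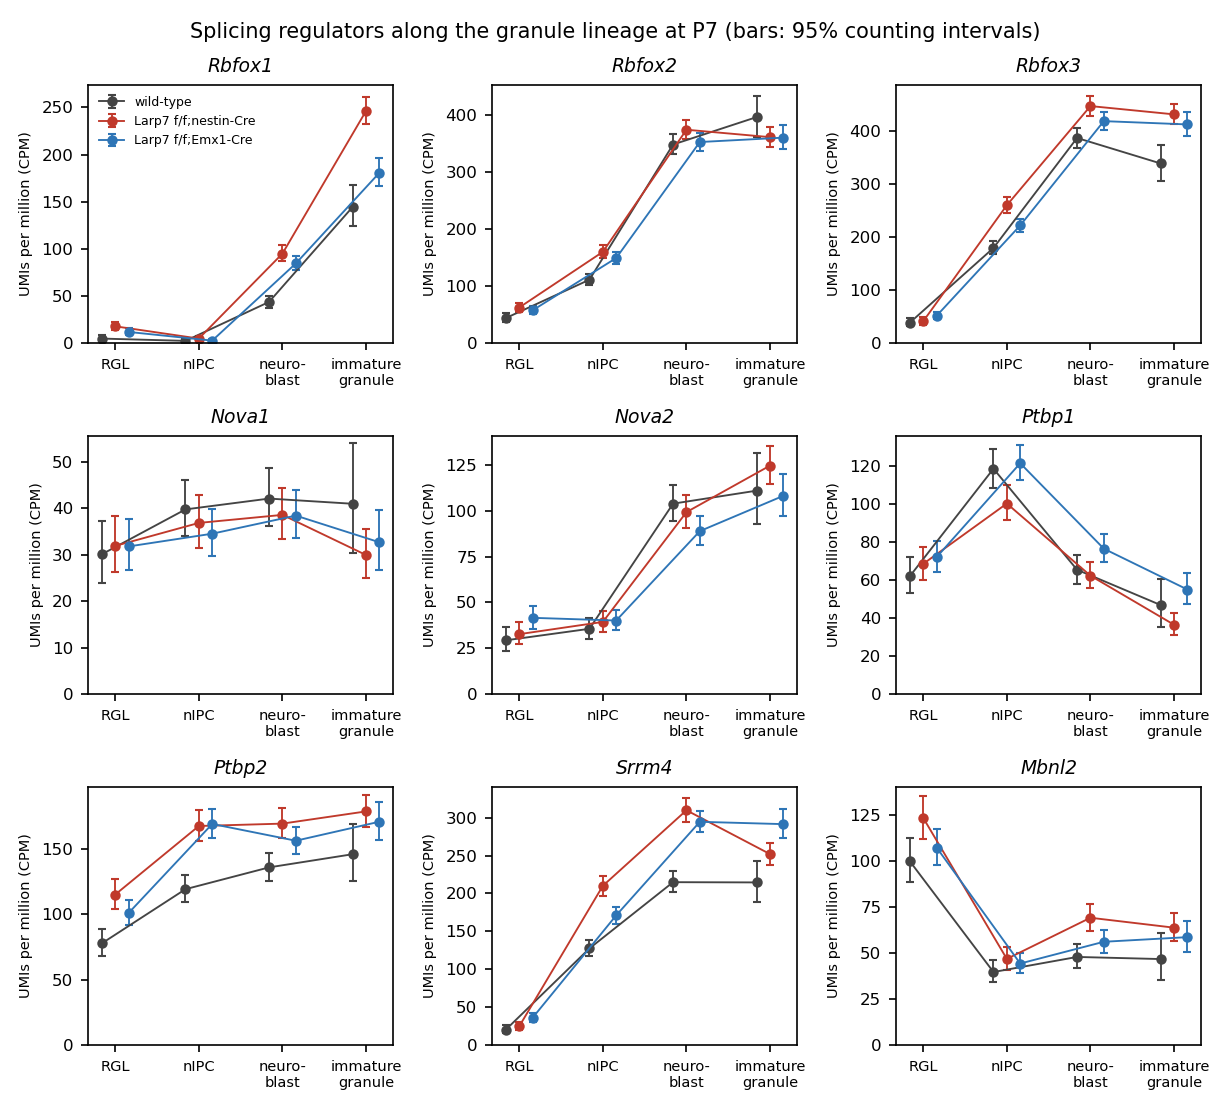
Each panel plots 1 gene, with the 4 stages of the granule lineage on the x axis and its CPM on the y axis, for the wild-type, nestin-Cre and Emx1-Cre libraries, with 95% counting intervals. Rbfox1 stands highest in immature granule-like cells in all 3 libraries (144, 246 and 181 CPM), while Mbnl2 is highest in RGL-like cells and Ptbp1 in nIPC-like cells.

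Srrm4 and Rbfox3 came on a stage before Rbfox1. Srrm4 in wild-type was at 20.3 CPM in RGL-like, 127 in nIPC-like, 215 in neuroblast-like and 215 in immature granule-like cells. Its step from RGL-like to nIPC-like cells was 2.65 on the log2 scale (2.25 to 3.08), and the last step, at 0.00 (-0.21 to 0.20), lay within counting error. Rbfox3 was at 38.4, 179, 386 and 338 CPM over the same stages. The first Rbfox3 step was 2.22 (1.93 to 2.53), the second 1.11 (0.99 to 1.23) and the last -0.19 (-0.35 to -0.03), so NeuN RNA was already at its highest in neuroblast-like cells. Rbfox2, the most broadly used Rbfox gene, was at 43.8, 111, 348 and 397 CPM, with steps of 1.34, 1.65 and 0.19 whose intervals all lay above 0.

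Both genes of the polypyrimidine tract-binding pair rose into nIPC-like cells in wild-type, and after that stage Ptbp1 fell while Ptbp2 changed little. Ptbp1 in wild-type was at 61.9 CPM in RGL-like, 118 in nIPC-like, 65.3 in neuroblast-like and 46.8 in immature granule-like cells. Its log2 difference was 0.94 (0.68 to 1.19) from RGL-like to nIPC-like cells and -0.86 (-1.07 to -0.65) from there to neuroblast-like cells. Ptbp2, the neuronal paralog, was at 77.9, 119, 136 and 146 CPM, higher by 0.62 (0.38 to 0.85) and then by 0.19 (0.02 to 0.36), with a last step of 0.10 (-0.15 to 0.35). In nestin-Cre and Emx1-Cre the Ptbp2 step from nIPC-like to neuroblast-like cells was 0.02 (-0.13 to 0.16) and -0.11 (-0.25 to 0.02). Reads of paralogs could be shared between Ptbp1 and Ptbp2, and how Cell Ranger placed them was not examined.

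Nova2 was at 29.3, 35.6, 104 and 111 CPM in the 4 stages of wild-type, and its step into neuroblast-like cells was 1.55 (1.28 to 1.82). The file lists Nova2 under 2 Ensembl rows, of which the second held no UMI. Nova1 was nearly level, at 30.1, 39.7, 42.0 and 40.9 CPM. Mbnl2 ran the other way, at 99.9 CPM in RGL-like cells against 39.7, 47.9 and 46.8 in the later stages, a first step of -1.33 (-1.61 to -1.05). In all, 6 genes were higher in immature granule-like than in RGL-like cells by intervals above 0 (Rbfox1, Rbfox2, Rbfox3, Nova2, Ptbp2 and Srrm4), Mbnl2 was lower, and the intervals of Nova1 and Ptbp1 held 0.

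The next question was whether Rbfox1 differed between genotypes within a stage. In immature granule-like cells Rbfox1 was at 144 CPM (124 to 168) in wild-type, 246 (232 to 261) in nestin-Cre and 181 (166 to 196) in Emx1-Cre. The intervals of wild-type and Emx1-Cre overlapped, and that of nestin-Cre lay above both. The log2 ratio to wild-type was 0.77 (0.54 to 1.01) for nestin-Cre and 0.32 (0.08 to 0.58) for Emx1-Cre. Both ratios use the same wild-type library.

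In neuroblast-like cells the ratios were larger. Rbfox1 was at 43.6 CPM (37.7 to 50.2) in wild-type, 94.9 (86.5 to 104) in nestin-Cre and 84.4 (77.1 to 92.3) in Emx1-Cre, with log2 ratios of 1.12 (0.88 to 1.37) and 0.95 (0.71 to 1.20). The class joins 2 clusters. In the earlier cluster, with Prox1 at 292, 519 and 413 CPM, Rbfox1 was at 11.0, 59.3 and 47.7 CPM. In the later cluster, with Prox1 at 577, 699 and 738 CPM, Rbfox1 was at 91.3, 179 and 146 CPM. Both clusters were thus higher in both mutant libraries, and Prox1 moved with Rbfox1, so the stage of the cells within a class cannot be told apart from their genotype. Taken as 1 class with the immature granule-like cells, the log2 ratios of Rbfox1 were 1.35 and 0.87. That joined class mixed the stages unequally, with 450, 1289 and 946 immature granule-like beside 1317, 1296 and 1388 neuroblast-like cells. Its ratios are thus not differences within a stage, and the part of the mix in them was not tested.

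Position within the immature granule-like class was also examined by ranking cells, thinned to equal depth, on a score over 22 granule maturation genes and cutting them into 3 parts. The parts are ranges of a score and not types, and 476 of 2413 cells lay within 0.1 SD of a cut. Rbfox1 in wild-type was at 131, 159 and 148 CPM from the least to the most mature part. In nestin-Cre it was at 229, 252 and 263 CPM, and in Emx1-Cre at 160, 177 and 214 CPM. Within each part both mutant libraries were above wild-type, and the log2 ratio ran from 0.66 to 0.83 for nestin-Cre and from 0.15 to 0.53 for Emx1-Cre. The wild-type level rested on 49 to 58 UMIs a part, and its interval overlapped that of Emx1-Cre in all 3 parts and that of nestin-Cre in none.

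Depth differed between the libraries, so shares of cells were also taken after thinning each cell to 1500 UMIs. A Rbfox1 UMI was seen in 28.7%, 52.6% and 41.3% of immature granule-like cells, and in 19.0%, 30.2% and 24.0% after thinning, which left 358, 1197 and 858 cells. In neuroblast-like cells the shares were 11.3%, 26.2% and 24.4%, and 5.61%, 12.7% and 9.27% after thinning. The order of the libraries stayed the same at equal depth in both classes.

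**Figure D2:**
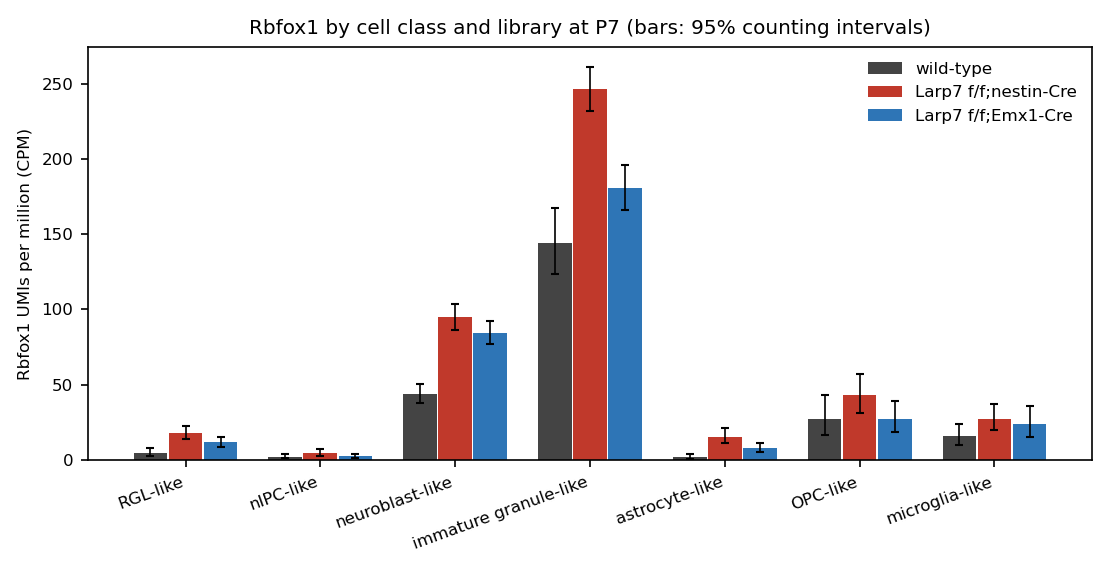
Bars give the Rbfox1 level (CPM, y axis) in 7 cell classes (x axis) for the 3 libraries, with 95% counting intervals. Immature granule-like cells stand highest, from 144 to 246 CPM, neuroblast-like cells follow at 43.6 to 94.9, and microglia-like cells carry 15.7 to 27.5.

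Outside the lineage Rbfox1 was low. In wild-type, after immature granule-like and neuroblast-like cells, the order ran through oligodendrocyte precursor (OPC)-like cells at 27.5 CPM (16.6 to 43.0), erythrocyte-like cells at 22.1 (14.9 to 31.6) and microglia-like cells at 15.7 (9.71 to 24.0). Endothelial-like cells at 6.06 (2.62 to 11.9), RGL-like cells at 4.71 (2.51 to 8.05), perivascular macrophage-like cells at 3.25 (0.08 to 18.1), nIPC-like cells at 2.27 (1.09 to 4.17) and astrocyte-like cells at 1.77 (0.65 to 3.86) followed. No UMI was seen in 17 GABAergic interneuron-like, 72 Cajal-Retzius-like and 74 leptomeningeal-like cells. From neuroblast-like cells downward, neighbours in this order had intervals that overlapped. Where Rbfox1 was near the floor, each class had fewer than 100 UMIs over the libraries compared. In the 6 classes that follow, no ratio interval lay below 0. RGL-like cells had 4.71, 17.7 and 11.8 CPM and astrocyte-like cells 1.77, 15.6 and 7.91 CPM, with both ratio intervals above 0. Microglia-like cells had 15.7, 27.5 and 24.1 CPM, with an interval above 0 in nestin-Cre alone. OPC-like cells had 27.5, 42.9 and 27.3 CPM and nIPC-like cells 2.27, 4.71 and 2.55 CPM, with intervals that held 0. Endothelial-like cells had 6.06, 3.06 and 19.5 CPM, the nestin-Cre value from 1 UMI, with an interval above 0 in Emx1-Cre alone. In RGL-like cells most Rbfox1 UMIs lay in a small cluster with a median of 7056 UMIs per cell, which held 235 cells and had Rbfox1 at 18.6, 94.1 and 44.7 CPM, against 2.14, 7.82 and 2.98 in the main RGL-like cluster.

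Free RNA in the droplets gives UMIs in cells that do not express a gene, so Rbfox1 was set against microglia-like cells, which should lack it. Their Rbfox1 level was 10.9%, 11.2% and 13.3% of that in immature granule-like cells of the same library. With the most numerous microglia-like cluster alone it was 6.51% in Emx1-Cre. A reference of 8 abundant neuronal genes (Tubb3, Stmn2, Neurod2, Sox11, Igfbpl1, Dcx, Prox1 and Neurod1) stood at 18.4%, 13.6% and 15.6% in the same comparison. The share of Rbfox1 found in microglia-like cells was thus no larger than that of genes known from neuroblasts and granule cells. A Rbfox1 UMI was seen in 3.68%, 7.59% and 5.76% of microglia-like cells, and in 1.76%, 3.84% and 1.30% after thinning. The microglial level of 15.7, 27.5 and 24.1 CPM stood above that of nIPC-like cells, at 2.27, 4.71 and 2.55 CPM. What part of the microglial level is free RNA was not tested. The median depth of microglia-like cells was 2307, 3264 and 3372 UMIs, against 2814, 3440 and 3432 in immature granule-like cells.

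Subtracting the microglial level left 129, 219 and 157 CPM of Rbfox1 in immature granule-like cells, and the log2 ratios were then 0.77 and 0.28. Per 1000 UMIs of the 8 reference genes, immature granule-like cells held 10.7 Rbfox1 UMIs (9.17 to 12.5) in wild-type, 17.4 (16.4 to 18.5) in nestin-Cre and 12.5 (11.5 to 13.6) in Emx1-Cre. Microglia-like cells held 6.31 (3.90 to 9.66), 14.2 (10.3 to 19.1) and 10.7 (6.78 to 16.1). The interval of microglia-like cells overlapped that of immature granule-like cells in all 3 libraries, and it lay above wild-type in nestin-Cre but not in Emx1-Cre. nIPC-like cells held 0.45, 0.72 and 0.44 per 1000, with the reference genes at 5091, 6498 and 5863 CPM against 2486, 1933 and 2246 CPM in microglia-like cells.

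**Figure D3:**
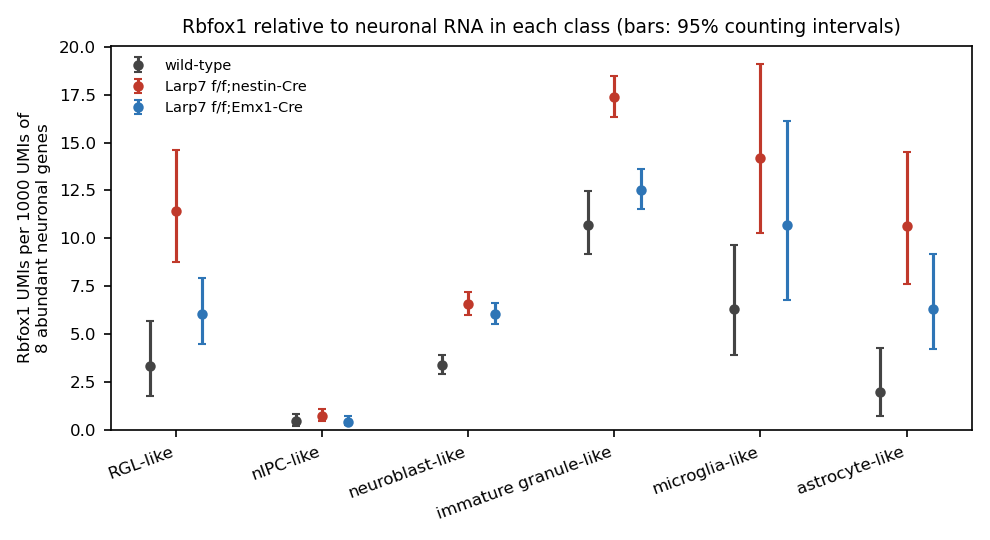
Points give Rbfox1 UMIs per 1000 UMIs of 8 abundant neuronal genes (y axis) in 6 cell classes (x axis) of the 3 libraries, with 95% counting intervals. Microglia-like cells (6.31, 14.2 and 10.7) lie at or below immature granule-like cells (10.7, 17.4 and 12.5), and nIPC-like cells lie under 1.

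Markers of other cells were counted beside the Rbfox1 result. In immature granule-like cells, the 10 pyramidal or mossy cell markers summed to 265, 333 and 351 CPM with 2, 0 and 1 at 0, and the 12 markers of GABAergic interneurons to between 14.1 and 17.8 CPM with 6, 1 and 4 at 0. The 11 microglial markers summed to 60.9, 49.4 and 29.5 CPM, none at 0, and the 5 erythrocyte markers to 220, 45.2 and 52.7 CPM with 1, 0 and 1 at 0. The pyramidal or mossy sum was higher and the microglial and erythrocyte sums lower in both mutant libraries, and their part in the level of Rbfox1 was not tested.

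The other regulators were then compared between genotypes. A gene was counted where a mutant and the wild-type library held at least 100 UMIs together, and as past the fold where they differed at least 1.5-fold. In immature granule-like cells of nestin-Cre, 1 of 9 genes, Rbfox1, was past the fold and higher, against 10.2% of all 6952 genes counted. With genes scaled over all libraries together before clustering, its ratio was 0.48 and under the fold. In Emx1-Cre it was 0 of 9, against 5.53%. In neuroblast-like cells Rbfox1 was the 1 of 9 past the fold and higher in each mutant library, against 9.21% in nestin-Cre and 6.4% in Emx1-Cre. None of the 9 genes was 1.5-fold lower in any of the 4 stages. Of all genes, 2.62% in nestin-Cre and 1.54% in Emx1-Cre were lower in RGL-like cells, 3.51% and 1.61% in nIPC-like cells, 7.78% and 2.83% in neuroblast-like cells, and 7.65% and 2.9% in immature granule-like cells. These shares are near the background, and Rbfox1 had been chosen for this difference.

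Srrm4 was past the fold in 2 comparisons. In nIPC-like cells it was at 127 CPM in wild-type, 210 in nestin-Cre and 171 in Emx1-Cre, log2 ratios of 0.72 (0.57 to 0.87) and 0.42 (0.27 to 0.58). It was the 1 of 8 genes past the fold and higher in nestin-Cre, against 7.94% of all genes, with 0 of 8 against 4.91% in Emx1-Cre. In RGL-like cells Srrm4 was at 20.3, 24.6 and 36.0 CPM, and its ratio in Emx1-Cre, 0.83 (0.38 to 1.30), was the 1 of 8 past the fold, against 4.53%. For nestin-Cre it was 0 of 8, against 6.97%. Most of these Srrm4 UMIs lay in the small RGL-like cluster with deep cells, at 103, 111 and 145 CPM, against 5.14, 13.5 and 6.85 CPM in the main cluster, so that wild-type and Emx1-Cre had overlapping intervals in each cluster. The RGL-like value turned to -0.54 in cells of 2000 to 5000 UMIs, whereas in neuroblast-like cells Srrm4 stood at 215, 310 and 295 CPM, ratios of 0.53 (0.41 to 0.65) and 0.46 (0.34 to 0.57). In immature granule-like cells the Srrm4 levels were 215, 252 and 291 CPM, with ratios of 0.23 (0.03 to 0.43) and 0.44 (0.24 to 0.65).

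Rbfox3, Ptbp2 and Mbnl2, like Srrm4, were above wild-type in all 8 comparisons of 4 stages and 2 mutant libraries, by less than 1.5-fold each time. Their intervals lay above 0 in 7, 7 and 3 of 8 comparisons. Rbfox3 in nIPC-like cells was at 179, 259 and 221 CPM, ratios of 0.54 (0.41 to 0.67) and 0.31 (0.18 to 0.44), and in immature granule-like cells at 338, 431 and 412 CPM, ratios of 0.35 (0.19 to 0.51) and 0.28 (0.12 to 0.45). Ptbp2 in nIPC-like cells was at 119, 168 and 169 CPM, ratios of 0.49 (0.33 to 0.65) and 0.50 (0.35 to 0.66). Mbnl2 differed most in neuroblast-like cells of nestin-Cre, 69.2 against 47.9 CPM, a ratio of 0.53 (0.28 to 0.78), with 0.23 (-0.03 to 0.49) in Emx1-Cre.

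Rbfox2 differed by stage. It was higher in nIPC-like cells, at 111, 160 and 149 CPM with ratios of 0.53 (0.36 to 0.69) and 0.42 (0.26 to 0.59), while in immature granule-like cells it was at 397, 361 and 361 CPM, with ratios of -0.13 (-0.28 to 0.02) and -0.14 (-0.29 to 0.02). Nova1, Nova2 and Ptbp1 showed no common direction. Nova1 in immature granule-like cells was at 40.9, 29.9 and 32.6 CPM, and all 8 of its intervals held 0. Ptbp1 in nIPC-like cells was at 118, 100 and 121 CPM, ratios of -0.24 (-0.43 to -0.06) and 0.03 (-0.13 to 0.20). Nova2 was higher in RGL-like cells of Emx1-Cre, 0.50 (0.12 to 0.90), and lower in their neuroblast-like cells, -0.22 (-0.41 to -0.04).

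**Figure D4:**
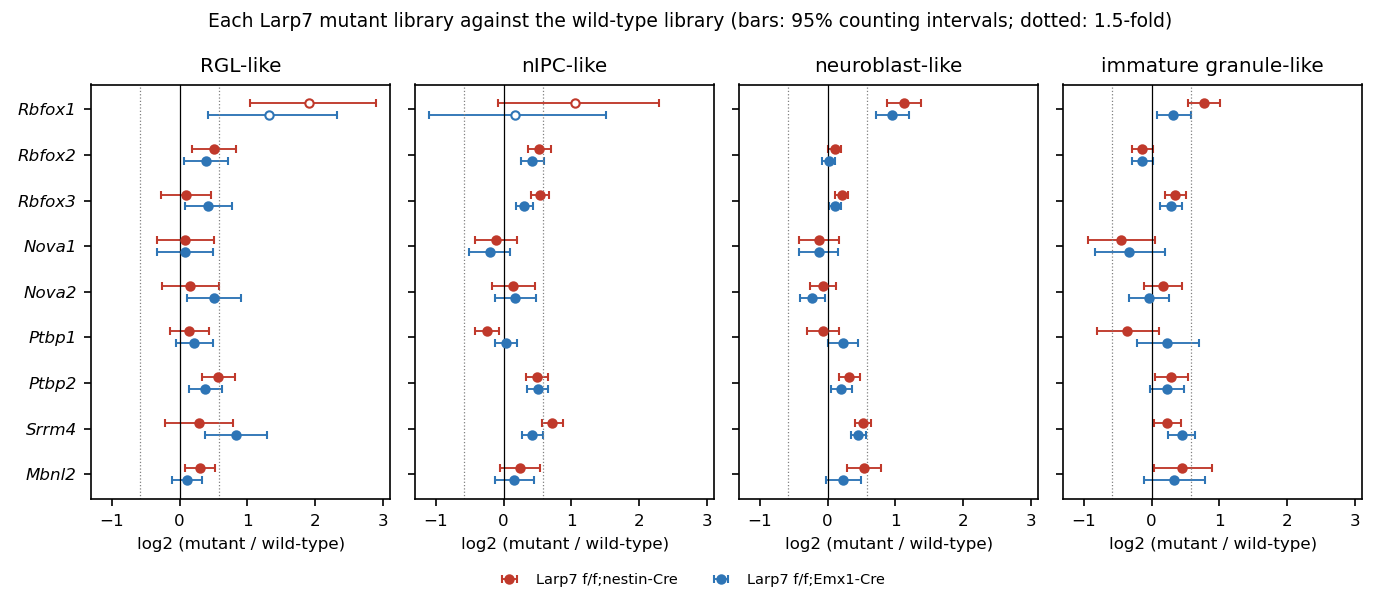
Each panel is 1 stage of the granule lineage, with the 9 genes on the y axis and the log2 ratio of each mutant library to the shared wild-type library on the x axis, with 95% counting intervals, open points for ratios from under 100 UMIs, and dotted lines at 1.5-fold. Rbfox1 lies right of the line in neuroblast-like cells of both mutant libraries (1.12 and 0.95) and in immature granule-like cells of nestin-Cre (0.77).

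Beside the 9 genes, 26 other regulators of neuronal or epithelial splicing and their repressors were listed. In immature granule-like cells 18 held enough UMIs, with a median log2 ratio of -0.02 in nestin-Cre and 0.00 in Emx1-Cre, against 0.23 and 0.23 for the 9 genes and -0.01 and 0.01 for all genes. Mbnl1, a muscleblind paralog, was past the fold and higher in nestin-Cre, at 64.5 against 34.2 CPM (0.91, 0.44 to 1.42). Mir124a-1hg, the host transcript of a microRNA that represses Ptbp1, was lower there at 69.7 against 109 CPM (-0.64, -0.94 to -0.33). Elavl4, a neuronal RNA stabiliser, was lower in both, at 44.3, 29.4 and 29.5 CPM. The background was 7.65% of genes lower in nestin-Cre and 2.9% in Emx1-Cre, so 2 and 1 of 18 genes lower, and 1 and 0 higher, is a small count.

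In nIPC-like cells 20 of these regulators held enough UMIs, and 6 were past the fold and higher in nestin-Cre and 4 in Emx1-Cre, against 7.94% and 4.91% of all genes. The medians were 0.32 and 0.24, against 0.05 and 0.06 for all genes. Celf5 was at 16.3 CPM in wild-type, 38.7 in nestin-Cre and 26.3 in Emx1-Cre, Celf4 at 21.8, 45.6 and 34.7 CPM, and Srrm3, the paralog of Srrm4, at 20.6, 40.4 and 29.4 CPM. These 3 genes are used mainly by neurons. The granule maturation genes described next were higher in the same cells, with medians of 0.56 and 0.31 over 9 genes. Their part in these differences was not tested. RGL-like cells were similar, with 4 and 5 of 20 regulators past the fold and higher, against 6.97% and 4.53% of all genes. The medians there were 0.32 and 0.26, against 0.04 and 0.06 for all genes. In neuroblast-like cells it was 1 and 1 of 20, against 9.21% and 6.4%.

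A list of 22 genes of granule cell maturation served as a measure of stage. In immature granule-like cells 14 held enough UMIs, with medians of 0.25 in nestin-Cre and 0.03 in Emx1-Cre, against -0.01 and 0.01 for all genes. Of these 14, 3 and 2 were past the fold and higher, against 10.2% and 5.53% of all genes. Syt1, a synaptic vesicle protein, had a ratio of 1.08 and Nrgn, a postsynaptic calmodulin-binding protein, 1.01 in nestin-Cre, while Cadps had -0.15. In neuroblast-like cells the medians were 0.57 and 0.33, against 0.0005 and 0.04 for all genes. There 7 and 2 of 14 were past the fold and higher, against 9.21% and 6.4% of all genes. None was past the fold and lower, against 7.78% and 2.83%. Nrgn there had a ratio of 1.70 and Lsamp 1.06 in nestin-Cre. Between these classes, both the maturation median and the ratio of Rbfox1 were larger in neuroblast-like cells, and the part of the one in the other was not tested.

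The genes whose levels ran most like Rbfox1 were sought over 28 sums of 12 classes in the 3 libraries, among 11604 genes. Fabp3, a fatty acid-binding protein, had a Pearson correlation of 0.96, Shtn1, which acts in neuronal polarity, 0.91, Olfml2b 0.91, Syndig1, a synaptic membrane protein, 0.89, and Grik4, a kainate receptor subunit that is also on the list of pyramidal or mossy markers, 0.89. Among the 9 genes Rbfox1 was closest to Nova2 at 0.71, with Ptbp2 at 0.56, Rbfox2 at 0.54 and Rbfox3 at 0.42. Rbfox3 and Srrm4 were nearly alike at 0.98, and Rbfox3 and Mbnl2 ran opposite at -0.66. Sums of 1 library share its depth and free RNA, so these are descriptions.

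The neurosphere cultures gave the replicated comparison, of 3 Larp7 knockout against 2 wild-type cultures. Totals were 59821311 to 62474602 counts per library. Larp7 was at 42.8 and 35.0 CPM in the wild-type and 4.17, 6.35 and 4.39 in the knockout cultures, lower without overlap (log2 -2.97 ± 0.21 SE, adjusted p = 0.0198 by edgeR's quasi-likelihood test with Benjamini-Hochberg adjustment over 17753 genes). The call was lost without knockout replicate 1 (adjusted p = 0.148 by edgeR) or 3 (0.195) and with the replicate number as a block (0.344). These were not granule cells. OPC markers summed to 7397 to 8631 CPM and RGL markers to 5018 to 6498, against 304 to 377 for the 14 neuroblast markers, of which 4 to 8 were at 0. In such cultures fewer cells of a type and less RNA per cell cannot be told apart.

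None of the 9 genes passed edgeR's test in the neurospheres at an adjusted p under 0.05, and 0.0338% of all genes did. At an unadjusted p under 0.05 by edgeR there were 3 of the 9. The share of all genes at this unadjusted limit was not counted, here or for the lists below, so such counts are not read as a result. DESeq2 called 1, Ptbp1, where it called 6.57% of all genes. The median log2 difference over the 9 genes was -0.04, against 0.01 over all genes.

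Rbfox1 was at 3.50 and 6.01 CPM in the wild-type and 4.30, 5.44 and 4.12 in the knockout cultures. The groups overlapped fully, and the log2 difference of -0.04 ± 0.27 (SE, adjusted p = 0.947 by edgeR) was within the spread between cultures. It was -0.38 without wild-type replicate 1 and 0.40 without wild-type replicate 2, so its sign rested on which wild-type library was kept. Rbfox2 at 124 and 176 against 140, 132 and 122 CPM overlapped too (-0.19, adjusted p = 0.499).

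Ptbp1, Srrm4 and Rbfox3 did not overlap between the groups. The share of all genes that separate in this way between so few libraries was not counted. Ptbp1 was at 245 and 172 in wild-type and 304, 273 and 272 CPM in knockout cultures (log2 0.44 ± 0.15 SE, adjusted p = 0.169 by edgeR and 0.034 by DESeq2). Srrm4 was low, at 10 and 21 counts in wild-type and 43, 53 and 48 in knockout libraries, or 0.166 and 0.348 against 0.722, 0.859 and 0.763 CPM (1.60 ± 0.49, adjusted p = 0.152 by edgeR and 0.0835 by DESeq2). Rbfox3 was at 8.69 and 17.0 in wild-type and 7.32, 8.52 and 7.16 CPM in knockout cultures (-0.74 ± 0.27, adjusted p = 0.196 by edgeR and 0.0737 by DESeq2). These differences did not pass the main test. The 12 astrocyte markers, none at 0, summed to 1783 and 2337 CPM in wild-type and to 1193 to 1432 in knockout cultures, and the 12 nIPC markers, of which 1 or 2 were at 0, to 272 and 293 against 323 to 361 CPM. Sox10, on the OPC list, was at 33.8 and 13.3 against 54.5, 101 and 133 CPM (log2 2.03 ± 0.50 SE, adjusted p = 0.118 by edgeR), while the sums of the OPC list overlapped. The part of these cells in the differences was not tested.

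The Rbfox3 value rested on wild-type replicate 2, which stood apart from replicate 1 in Rbfox3, Ptbp1 and also Syt1 (33.3 against 9.28 CPM). Without replicate 2 the log2 difference of Rbfox3 was -0.18 and that of Ptbp1 0.21. Without replicate 1, when the lone wild-type library was assumed to vary like the knockout libraries, Ptbp1 was 0.72 (adjusted p = 0.00994 by edgeR), Rbfox3 -1.15 (0.014) and Rbfox2 -0.42 (0.0395), while the genes called over the whole table came to 10.2%.

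Nova1, Nova2, Ptbp2 and Mbnl2 differed by less than the spread between cultures. Nova1 was at 271 and 336 against 275, 308 and 274 CPM (log2 -0.09, adjusted p = 0.668 by edgeR), and Nova2 at 97.3 and 114 against 97.0, 104 and 94.3 (-0.10, 0.544). Ptbp2 was the steadiest, at 229 and 227 against 227, 227 and 218 (-0.03 ± 0.05 SE, 0.808). Mbnl2 was at 77.5 and 88.8 against 81.0, 80.0 and 83.7 (-0.03, 0.868).

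**Figure D5:**
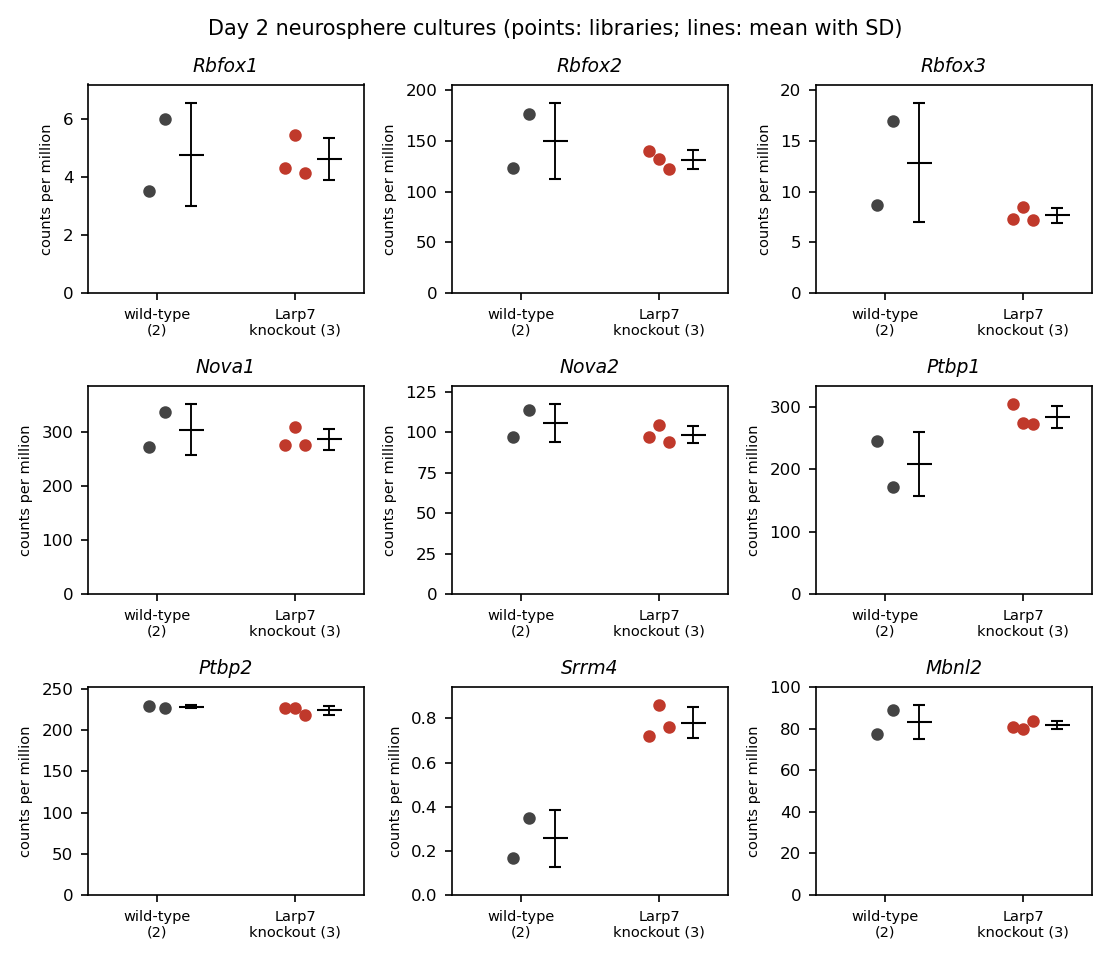
Each panel plots 1 gene in day 2 neurosphere cultures, with points for the 2 wild-type and 3 Larp7 knockout libraries, lines for the mean with SD, and CPM on the y axis from 0. Ptbp1 and Srrm4 lie higher and Rbfox3 lower in all 3 knockout libraries, and Rbfox1 overlaps between 3.50 and 6.01. No gene shown passed edgeR's test at an adjusted p under 0.05.

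Of the 26 other regulators 25 were tested in the neurospheres and edgeR called 0, with 5 at an unadjusted p under 0.05 and 1, Rest, by DESeq2. Rest, the repressor of neuronal genes, was at 43.7 and 40.4 in wild-type and 57.4, 50.6 and 50.3 CPM in knockout cultures (log2 0.33, adjusted p = 0.146 by edgeR and 0.0386 by DESeq2). The median over the 25 genes was 0.13. The maturation list gave 0 called by edgeR of 20 tested, with 6 at an unadjusted p under 0.05, and a median of -0.17.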

How the data were processed

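For the 10x Genomics 3′ libraries the authors deposited raw UMI counts, with no normalization. The matrix header names Cell Ranger 4.0.0, the methods another version, and the submitters' notes the build mm10. For the neurospheres they deposited raw counts under Entrez identifiers. The methods name Minimap2 and an Ensembl transcriptome for them while the notes name featureCounts, with strand handling not given in the sources used here. That file has 10 columns of values, and the names of 5 match no sample, so these 5 were left out. ATAC-seq and CUT&Tag libraries were not used here.

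Cells with more than 500 genes and under 15% mitochondrial UMIs were log-normalized to 10000 UMIs. Of 2000 variable genes, those among the 9 genes, Larp7, cell cycle genes and genes with a correlation over 0.25 with them were left out, and 1928 genes were scaled within each library (30 principal components, 15 neighbours, Leiden resolution 1, Python 3.11.15, scanpy 1.11.5, igraph 0.11.9). A cluster took a name where at least 3 markers were in at least 10% of its cells and 1.5-fold higher, the list's mean log2 fold was at least 0.5, and markers of no other class were more frequent among its 10 leading genes. The limits were set with the data at hand, after markers and the 9 genes had been seen. Naming rules were tried 3 times, and under the first versions the immature granule-like cluster was called neuroblast. Doublets were kept. Scrublet called 2 wild-type cells, where it did not work, and 248 and 394 in the mutant libraries. UMIs were summed per class and library. Intervals are 95%, exact Poisson for levels, exact conditional for ratios and Clopper-Pearson for shares, and cover counting error only. For a count of 0 the limit is 3 counts of the total.

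Neurosphere counts were fitted with edgeR 4.0.16 (quasi-likelihood, TMM, filterByExpr, R 4.3.3), which tested 17753 genes, with DESeq2 1.42.0 as an alternative. Common biological variation was 19.4%, and the chi-square per degree of freedom between replicates was 20.1 to 66.1, so none was a repeat of another. Symbols for 39373 of 40814 Entrez IDs, positions and promoter windows came from RefSeq tables of GRCm38.p6. The fits were tested on simulated data. There the neurosphere fit recovered 41.9% of 200 genes changed 2-fold, with 3.49% false among those called, so a gene not called can still differ.

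The genes, the lists and the tests were chosen with earlier results of these data known. Named were the 9 genes, Larp7, at most 5 other regulators per comparison past the threshold or fold, the 5 genes most like Rbfox1 among those with at least 300 UMIs, and at most 4 maturation genes. A maturation gene that this rule named is not reported here. Rest and Sox10 in neurospheres, Prox1, and Syt1 as a sign of the wild-type replicate that stood apart, were named after their values were seen.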

Additional observations from a re-analysis of the deposited data

Results flagged for a closer look

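Rbfox3 differed in direction between the assays. In the neurospheres its log2 difference was -0.74 (adjusted p = 0.196 by edgeR), with each of the 3 knockout libraries below both wild-type libraries. The share of all genes that separate in this way was not counted. In all 8 comparisons of the P7 granule lineage the mutant libraries were above wild-type, by 0.09 to 0.54. These comparisons share 1 wild-type library, and the intervals lay above 0 in 7 of the 8. The difference between the assays was not tested. The neurosphere value was -0.18 without wild-type replicate 2.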

How the results depend on the processing

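The Rbfox1 log2 ratio in immature granule-like cells was 0.48 in nestin-Cre when genes were scaled over all libraries together, and with neuroblast-like cells in the same class it was 1.35 and, for Emx1-Cre, 0.87. The joined class held the stages in different proportions in each library. Over 15 settings, the joined class among them, the ratio ran from 0.48 to 1.35 and from 0.12 to 0.87. In neuroblast-like cells it ran over 12 settings from 0.63 to 2.33 and from 0.60 to 2.02. Resolution 0.5 gave no immature granule-like class. Along the lineage, 5 of 68 ratios of the 9 genes were at least 1.5-fold higher. The number was 9 at resolution 2, 8 when scaled together and 11 of thinned cells. It was 20 of 48 with microglial CPM subtracted, where a ratio needed a level above 0 in both libraries. With the late classes joined it was 2 of 18, and in cells of 2000 to 5000 UMIs 9, both settings chosen after seeing the data. Lower ratios and the shares of all genes were not counted in these other settings, so the numbers are not read as a result. With the most numerous microglia-like cluster alone, likewise added, microglial Rbfox1 in Emx1-Cre was 6.51% of the immature granule-like level in place of 13.3%. Srrm4 in RGL-like cells of Emx1-Cre turned to -0.54 in cells of 2000 to 5000 UMIs. The cause of these shifts was not tested.

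In neurospheres the 9 genes gave 0 calls, 1 by DESeq2 and 0 to 3 when a library was left out, and the other regulators 0, 1 and 0 to 3. All calls when a library was left out came without wild-type replicate 1, when 1050 genes rose and 855 fell, and 728 and 863 did by DESeq2, against 3 and 3 by edgeR. Larp7 ranged from -3.18 to -2.82 when a library was left out and lost its call at -2.85 (without knockout replicate 1, adjusted p = 0.148 by edgeR), -2.88 (knockout replicate 3, 0.195) and -2.90 (replicate block, 0.344). Replicate numbers did not pair the libraries (correlations -0.01 and 0.09), and the block left 0 genes called. Rbfox1 turned to 0.074 with the block. Leaving out a library in turn, it ran from -0.38 to 0.40 (0.01 and 0.04 between), Rbfox2 from -0.42 to 0.093, Nova1 from -0.24 to 0.079, Nova2 from -0.21 to 0.019 and Mbnl2 from -0.12 to 0.076, the lowest without wild-type replicate 1 and the highest without wild-type replicate 2. Of single values, 761 of 816 from single cells stayed within the counting interval of the main value, which need not keep direction or side of the fold. From neurospheres, 69 of 81 kept direction and side of the threshold. Single cells have no replicate to leave out. Rbfox1 in RGL-like and nIPC-like cells rests on at most 64 UMIs a library.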

Other observations

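Nova1, Ptbp1 and Mbnl2 had levels in other classes above those of the late lineage stages. Nova1 was highest in OPC-like cells, at 92.8 CPM (71.5 to 118) in wild-type, 97.0 in nestin-Cre and 74.4 in Emx1-Cre, against 30.1 to 42.0 CPM in the 4 lineage stages of wild-type. Ptbp1 in microglia-like cells was at 129, 106 and 123 CPM, 276%, 291% and 225% of its level in immature granule-like cells, and Mbnl2 there was at 68.0, 60.6 and 56.5 CPM. Neither gene can therefore be read against microglia-like cells as a background, and subtracting that level gave values below 0 for Ptbp1 in the wild-type library, at -82.5 CPM.

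Rbfox1 was not seen in GABAergic interneuron-like cells, 0 of 17, 34 and 44 cells, which, at 3 counts of the total, allows a share of cells with a UMI of up to 17.6%, 8.82% and 6.82%. Rbfox1 in the largest unnamed cluster, of 3660 wild-type cells at a median of 1032 UMIs, was at 23.0 CPM, and in its 120 and 132 mutant cells it was at 93.7 and 51.3 CPM.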
